A study of Mus musculus with 12 samples.

Results

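The circadian clock genes examined here are 10 named genes, Arntl, Npas2, Nr1d1, Nr1d2, Per1, Per2, Per3, Cry1, Cry2 and Dbp. They were chosen by gene symbol, without use of their measured values, and 10 of 10 were present among the 14533 genes of the count table. Messenger RNA was sequenced from scraped, frozen dorsal epidermis of 12 mice, with 1 library per mouse, so replicates are separate animals. All mice were C57BL/6 and homozygous for a floxed Pparg allele (flox/flox), and none was treated. The 6 WT mice lacked Cre (Cytokeratin14 promoter-driven Cre-/-, 3 female and 3 male), and the 6 Pparg-/-epi mice carried it (Cre+/-, 4 female and 2 male). The Cytokeratin14 promoter drives Cre in basal keratinocytes, which the study places in both the interfollicular and the follicular epidermis. Pparg in cells outside the epithelium, such as fibroblasts, is not a target of the deletion. Both groups were 8 to 13 weeks old, and the skin was non-lesional. The hour at which skin was collected is not given in the sources used here, so for genes that cycle over the day, genotype and collection time cannot be told apart.

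The mammalian clock is a feedback loop of transcription. BMAL1 (the product of Arntl) with CLOCK or NPAS2 activates genes through E-boxes, among them the Per and Cry genes, whose proteins then repress that activation, and the nuclear receptors Nr1d1 and Nr1d2 (REV-ERBα and REV-ERBβ), which repress Arntl and Npas2 through ROR elements. Dbp, a target of the loop, activates genes through D-boxes. Transcripts of Dbp, Nr1d1, Nr1d2 and Per3 are known to peak within a few hours of each other, those of Arntl and Npas2 near the opposite phase, and Per2 and Cry1 later than Dbp. In skin, keratinocytes hold such a clock.

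Total counts ranged from 10120840 to 18851255 per library, and RNA integrity numbers (RIN) from 5.7 to 8.6. Keratinocyte markers were abundant in every library: the summed level of the 6 markers ranged from 16326 to 44311 CPM (counts scaled to a common library size) in WT and from 26725 to 49406 CPM in Pparg-/-epi mice. Of these 6, Krt14 was higher (log2 fold change 0.98) and Krt15 lower (-1.74) in Pparg-/-epi mice, each without overlap. Sums for other cell types varied more between mice, except that of leukocytes in Pparg-/-epi mice. The 6 fibroblast markers ran from 1014 to 34533 CPM in WT and from 5324 to 11169 CPM in Pparg-/-epi mice, and the 8 anagen hair follicle markers from 2.49 to 839 and from 80.3 to 2290 CPM. The 5 skeletal muscle markers ran from 10.0 to 9059 CPM in WT and from 8.48 to 354 CPM in Pparg-/-epi mice, the 4 adipocyte markers from 0.881 to 59.0 and from 2.74 to 20.6 CPM, the 3 endothelial markers from 3.21 to 86.2 and from 16.6 to 131 CPM, and the 4 leukocyte markers from 121 to 479 and from 220.3 to 310.3 CPM. Of the leukocyte markers, Cd3e was lower in Pparg-/-epi mice (log2 fold change -0.75), with overlap. Of the 5 sebocyte markers, 4 were listed, with sums from 11.4 to 666 CPM in WT and from 1.83 to 10.1 CPM in Pparg-/-epi mice, and 3 of these 4 were lower in Pparg-/-epi mice. The part of these differences in the values of the clock genes was not tested. In bulk samples, fewer cells of a type and less RNA per cell cannot be told apart. The Pparg count did not separate the genotypes (log2 fold change -0.10, SE 0.71, adjusted p = 0.949 by edgeR's quasi-likelihood test), with levels from 0.50 to 14.3 CPM in WT and from 1.3 to 6.5 CPM in Pparg-/-epi mice. Counts summed over a gene do not check the deletion, since a floxed allele can leave a shortened transcript.

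The control elements of the loop were searched for in RefSeq promoter windows, which run from 250 bases before to 50 bases after each start site (assembly GRCm38.p6). Windows were matched for 9 of the 10 genes, 11 windows in all, with 2 each for Arntl and Per1. The Nr1d1 window (chr11:98775328-98775627, minus strand) is shown because Nr1d1 was the gene that differed between the genotypes, and those of Per3 (chr4:151044616-151044915, minus), Arntl (second window, chr7:113207261-113207560, plus), Cry1 (chr10:85185005-85185304, minus) and Per1 (first window, chr11:69098699-69098998, plus) because they held a match. Capitals mark the E-box CACGTG, the D-box (TTA, then C or T, then GTAA) or the ROR element (AANT followed by NGGTCA), searched on both strands.
Nr1d1: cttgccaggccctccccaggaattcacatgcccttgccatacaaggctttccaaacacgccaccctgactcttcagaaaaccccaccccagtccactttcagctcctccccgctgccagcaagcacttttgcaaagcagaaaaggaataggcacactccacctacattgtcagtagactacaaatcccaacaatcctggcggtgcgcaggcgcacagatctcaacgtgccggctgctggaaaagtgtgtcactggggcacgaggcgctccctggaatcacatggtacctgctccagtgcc
Per3: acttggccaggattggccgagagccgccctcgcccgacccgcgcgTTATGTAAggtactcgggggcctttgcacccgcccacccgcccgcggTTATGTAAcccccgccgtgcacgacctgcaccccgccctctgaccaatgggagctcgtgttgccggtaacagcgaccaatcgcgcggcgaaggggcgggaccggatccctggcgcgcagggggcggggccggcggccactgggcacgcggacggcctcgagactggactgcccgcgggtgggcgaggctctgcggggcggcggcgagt
Arntl: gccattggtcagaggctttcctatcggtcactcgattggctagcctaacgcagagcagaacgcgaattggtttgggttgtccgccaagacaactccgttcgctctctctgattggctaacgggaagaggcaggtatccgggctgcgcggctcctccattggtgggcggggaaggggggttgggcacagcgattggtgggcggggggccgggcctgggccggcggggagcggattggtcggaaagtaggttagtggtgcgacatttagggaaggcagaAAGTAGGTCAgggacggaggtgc
Cry1: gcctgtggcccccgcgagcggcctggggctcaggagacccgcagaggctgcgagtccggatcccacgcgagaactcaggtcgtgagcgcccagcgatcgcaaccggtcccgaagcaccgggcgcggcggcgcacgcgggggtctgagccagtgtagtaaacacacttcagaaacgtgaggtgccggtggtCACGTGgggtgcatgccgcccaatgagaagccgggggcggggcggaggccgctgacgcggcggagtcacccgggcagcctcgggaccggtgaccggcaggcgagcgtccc
Per1: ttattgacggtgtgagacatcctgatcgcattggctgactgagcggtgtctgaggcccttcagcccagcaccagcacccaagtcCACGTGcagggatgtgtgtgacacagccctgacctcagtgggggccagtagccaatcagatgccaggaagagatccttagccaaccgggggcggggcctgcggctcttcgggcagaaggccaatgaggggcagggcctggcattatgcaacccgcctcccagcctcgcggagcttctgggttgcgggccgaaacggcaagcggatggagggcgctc
With the start site counted as 0, the 2 D-boxes of Per3 began at -205 and -158. The E-boxes of Cry1 and Per1 began at -60 and -166, and the ROR element of Arntl began at 27, inside the transcript. The windows of Nr1d1, Nr1d2, Npas2, Cry2 and Dbp held none of these letters. Over all 32851 windows, 7.15% held the E-box, 1.06% the D-box and 0.606% the ROR element. A match is a description of the letters and not evidence of binding, and elements outside the window were not searched.

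The first question was which clock genes differed between Pparg-/-epi and WT epidermis. Nr1d1, a repressor of Arntl and Npas2, was lower in Pparg-/-epi mice, and it was the 1 clock gene of 10 that was altered, a term used here for a shift by 0.6 or more on the log2 scale, either way, with an adjusted p under 0.05. Of all genes 10.3% were altered, with 5.19% above and 5.08% below the WT level, so 1 in 10 is near the share in the whole table. None of the 10 clock genes had groups that did not overlap in CPM, against 7.9% of all genes. Of the 10 log2 fold changes 7 were negative, with a median of -0.43, against -0.01 for all genes.

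**Figure D1:**
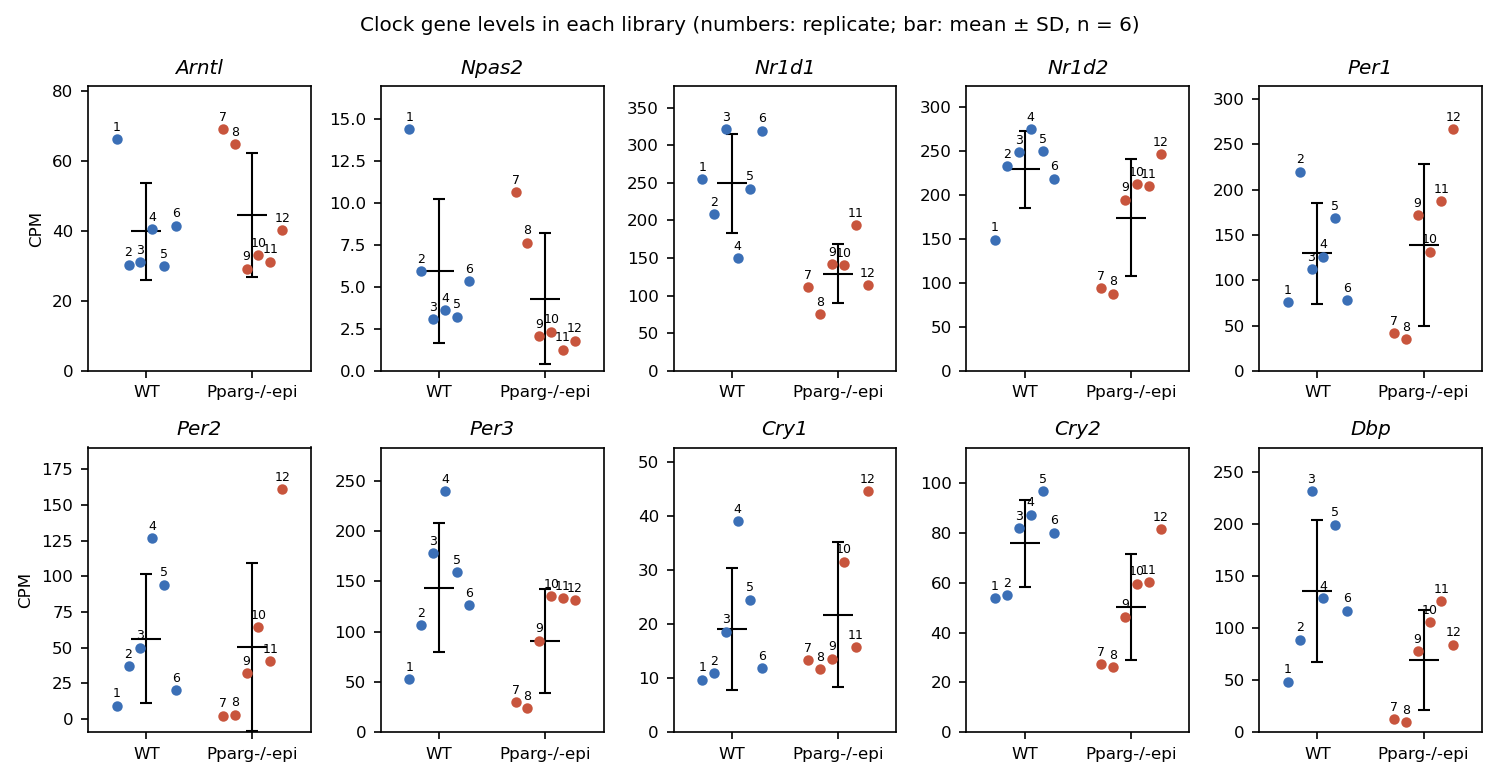
Level of each clock gene (y axis, CPM) in the 6 WT (blue) and 6 Pparg-/-epi (red) libraries, with the replicate number above each point and bars for the mean ± SD (n = 6). Nr1d1 was between 149.6 and 321 CPM in WT and between 75.5 and 194 CPM in Pparg-/-epi mice, and 5 of 6 Pparg-/-epi points lie below every WT point.

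Nr1d1 (mm10 chr11:98767932-98775377, minus strand) was at 149.6 CPM at the lowest, 248 at the median and 321 at the highest in WT mice. In Pparg-/-epi mice it was at 75.5, 127 and 194 CPM. Only Pparg-/-epi replicate 11, the highest of its group, lay above the lowest WT library, replicate 4, so that 5 of 6 Pparg-/-epi libraries were below every WT library. The means were 249 ± 65.9 and 129 ± 39.6 CPM (SD, n = 6 each), a log2 fold change of -0.95 with an SE of 0.225 (adjusted p = 0.0139, edgeR's quasi-likelihood test, Benjamini-Hochberg over all genes). Leaving out any 1 mouse gave values between -1.10 and -0.85, each still altered. Among female mice alone (3 WT and 4 Pparg-/-epi) the log2 fold change was -0.80 and missed the threshold (adjusted p = 0.230).

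Nr1d2, the related repressor, was not altered. Its lowest, median and highest levels were 149, 241 and 275 CPM in WT mice and 87.7, 202 and 246 CPM in Pparg-/-epi mice. The low Pparg-/-epi libraries were replicates 7 and 8, at 94.0 and 87.7 CPM, and the other 4 lay within the WT range. The log2 fold change was -0.40 with an SE of 0.253 (adjusted p = 0.328, edgeR). Per unit of transcript length, as RPKM, Nr1d1 stood at a median of 1.89 times Nr1d2 in WT (range 0.914 to 2.86) and 1.33 times in Pparg-/-epi mice (range 0.775 to 1.99), and these ranges overlap.

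The activators did not pass the test. Arntl ran from 30.0 to 66.3 CPM in WT, with a median of 35.8, and from 29.3 to 69.1 CPM in the other group, where the median was 36.6. Its highest libraries were WT replicate 1 (66.3 CPM) and Pparg-/-epi replicates 7 and 8 (69.1 and 64.9 CPM), while the other 9 were between 29.3 and 41.5 CPM. Npas2, which can take the place of CLOCK as partner of BMAL1, was at 3.09, 4.49 and 14.4 CPM in WT and at 1.27, 2.19 and 10.7 CPM in Pparg-/-epi mice, in the order lowest, median and highest. The same 3 libraries were its highest. The log2 fold changes were 0.16 (SE 0.265, adjusted p = 0.743) for Arntl and -0.46 (SE 0.568, adjusted p = 0.648) for Npas2 by edgeR.

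Dbp (mm10 chr7:45705247-45710203, plus strand), the D-box activator downstream of the loop, had the most negative log2 fold change, -0.97, but with an SE of 0.579 (adjusted p = 0.295, edgeR). Its lowest, median and highest levels were 48.7, 123 and 232 CPM in WT and 9.58, 81.3 and 126 CPM in Pparg-/-epi mice. Pparg-/-epi replicates 7 and 8 stood at 12.8 and 9.58 CPM, and the next library, WT replicate 1, at 48.7 CPM. Dbp shares 539 exon bases, 32.1% of its exon length, with Sphk2 on the opposite strand. The strand setting of the counting is not stated, so how far this overlap affects the Dbp level is not known. Sphk2 itself ran from 118 to 165 CPM in WT and from 88.3 to 126 CPM in Pparg-/-epi mice. For Sphk2, edgeR gave a shift of -0.50 on the log2 scale (SE 0.0999, adjusted p = 0.00587). That shift has the same sign as the shift of Dbp but lies inside the fold threshold of 0.6. The part of the overlap in the Dbp difference was not tested.

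Among the period genes, which encode repressors of BMAL1, none passed the test. Per1 was at 76.1, 119 and 220 CPM in WT and at 35.0, 152 and 267 CPM in Pparg-/-epi mice (lowest, median and highest). Per2 was at 9.33, 43.5 and 127 CPM in WT and at 2.24, 36.1 and 161 CPM in Pparg-/-epi mice, so the highest Pparg-/-epi library held 72.1 times the CPM of the lowest. Per3 was at 52.7, 143 and 240 CPM in WT and at 24.3, 111 and 135 CPM in Pparg-/-epi mice. All 3 were lowest in Pparg-/-epi replicates 7 and 8. The log2 fold changes were 0.10 (SE 0.457), -0.16 (SE 0.872) and -0.66 (SE 0.454) for Per1, Per2 and Per3, with adjusted p of 0.918, 0.932 and 0.365 by edgeR.

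The cryptochromes, partners of the period proteins in repression, did not pass it either. Cry1 was at 9.78, 15.2 and 39.1 CPM in WT and at 11.7, 14.7 and 44.7 CPM in Pparg-/-epi mice (lowest, median and highest), and its highest libraries were WT replicate 4 and Pparg-/-epi replicate 12, as for Per2. Cry2 was at 53.9, 80.9 and 96.7 CPM in WT and at 26.2, 52.9 and 81.3 CPM in the other group, lowest in Pparg-/-epi replicates 7 and 8 again. The log2 fold changes were 0.19 (SE 0.420, adjusted p = 0.816) for Cry1 and -0.60 (SE 0.269, adjusted p = 0.158) for Cry2 by edgeR. In a model with sex and its interaction with genotype, the difference of the contrast between the sexes had an adjusted p of 0.895 or more for each of the 10 genes. At an unadjusted p under 0.05, Cry1 was the 1 clock gene to pass, with an interaction of 1.71 on the log2 scale.

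Compared per unit of length, the order of the 10 genes by median differed between the groups only in the places of Nr1d1 and Dbp. The Dbp level in this order carries the limit from its overlap with Sphk2. In WT the median RPKM was 89.8 for Nr1d1, 73.2 for Dbp, 51.96 for Nr1d2, 25.3 for Per1, 23.6 for Per3, 20.2 for Cry2, 12.3 for Arntl, 7.45 for Per2, 5.05 for Cry1 and 1.07 for Npas2. In WT every gene overlapped with its neighbours in that order, as Nr1d1 (54.1 to 116 RPKM) did with Dbp (29.0 to 138 RPKM), so no neighbours were apart beyond their spread. In Pparg-/-epi mice the medians were 48.4 for Dbp, 45.95 for Nr1d1 and 43.6 for Nr1d2, then 32.3 for Per1, 18.4 for Per3, 13.2 for Cry2, 12.6 for Arntl, 6.18 for Per2, 4.87 for Cry1 and 0.525 for Npas2. There Cry1 (3.88 to 14.8 RPKM) and Npas2 (0.303 to 2.55 RPKM) were the neighbours whose ranges did not overlap, and all others did.

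**Figure D2:**
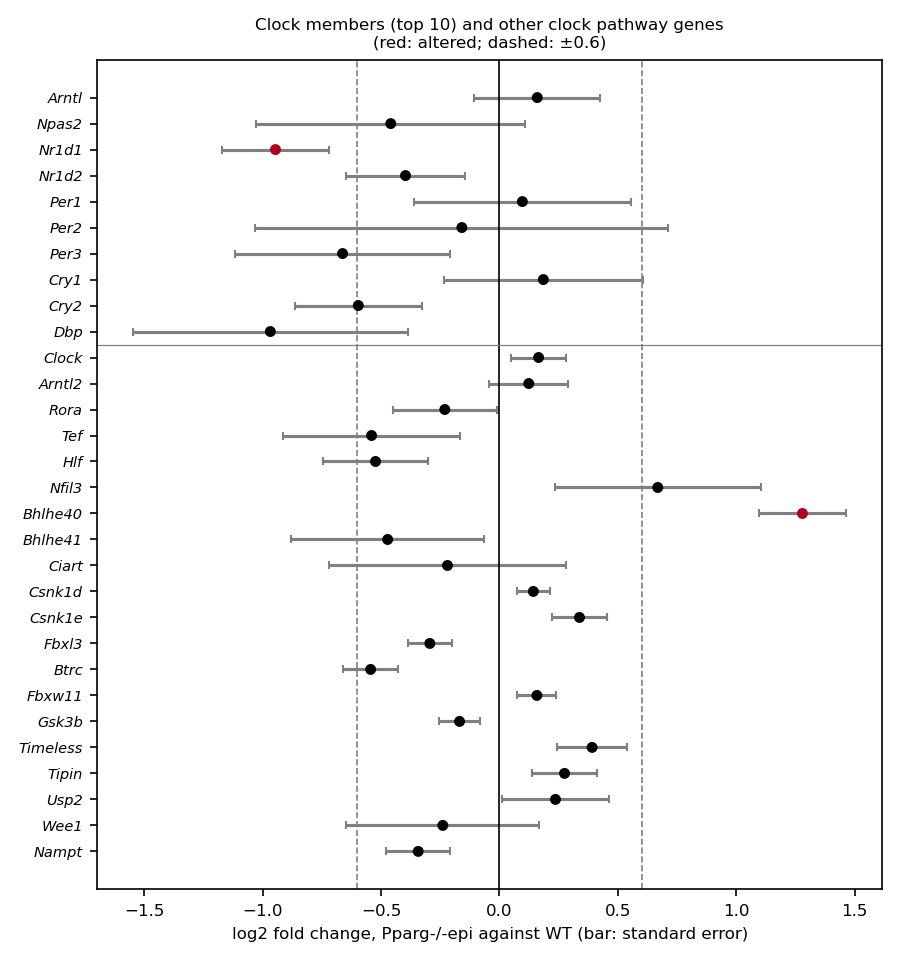
Log2 fold change in CPM of Pparg-/-epi against WT mice (x axis) with its standard error for the 10 clock genes and 20 of the other clock pathway genes (y axis), dashed lines at the threshold of 0.6. Altered genes are red: Nr1d1 at -0.95 and Bhlhe40 at 1.28.

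Of 23 further genes of the pathway 21 were listed, and 1 was altered, against 10.3% of all genes. Groups did not overlap for 1 of the 21 upward and 1 downward, against 7.9% of all genes in either direction. Bhlhe40 (DEC1), a repressor that competes for E-boxes, was higher in Pparg-/-epi mice. It ran from 36.9 to 61.0 CPM in WT, with a mean of 45.5 ± 8.69 (SD, n = 6), and from 78.6 to 156 CPM in the other group, where the mean was 110.4 ± 31.5 (SD, n = 6), without overlap. The log2 fold change was 1.28 with an SE of 0.185 (adjusted p = 0.000965, edgeR), and it stayed between 1.13 and 1.38 when each mouse was left out. Btrc, a subunit of a ubiquitin ligase that acts on period proteins, also showed no overlap, with 16.9 to 23.0 CPM in WT and 10.8 to 14.7 CPM in Pparg-/-epi mice, but its log2 fold change of -0.54 (adjusted p = 0.00794, edgeR) lay inside the fold threshold. The median over the 21 genes was -0.17, with 10 positive and 11 negative. Of 10 glucocorticoid-responsive genes, listed because Per1 also responds to glucocorticoids, 1 was altered, again against 10.3% of all genes. Sgk1, a kinase of salt transport and survival signalling, was higher, from 59.5 to 163 CPM in WT and from 155 to 218 CPM in Pparg-/-epi mice (log2 fold change 0.97, SE 0.216, adjusted p = 0.00987, edgeR). Its call was lost among female mice alone (0.91, adjusted p = 0.118) and without WT replicate 1 and Pparg-/-epi replicates 7 and 8 (0.86, adjusted p = 0.0882). The median of that list was -0.32.

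The clock genes varied more between mice of a group than most genes. The SD of log2 CPM within groups had a median of 0.868 over the 10 genes, against 0.300 over all genes, and the median clock gene stood at the 89.3rd percentile of all genes. Per2 stood at the 99.3rd percentile and Dbp at the 96.4th. Nr1d1 was the least variable, at the 68.4th percentile. Clock itself, which cycles little in most tissues, was at the 25.9th. In 10 of 10 genes the SD was larger among Pparg-/-epi than among WT mice, as for Dbp, at 1.63 against 0.815, and Per2, at 2.44 against 1.39. The 2 values were close for Cry1 (0.783 and 0.776) and Nr1d1 (0.454 and 0.414). Over all genes the median SD was 0.265 and 0.315 in the same order, and 31.1% of genes had the larger SD in Pparg-/-epi mice. Without Pparg-/-epi replicates 7 and 8, a choice made after their values were seen, the SD was larger in that group for 1 of the 10 genes, Cry1, and that of Dbp was 0.315. Over all genes the share was then 28.2%. These 2 libraries are the farthest from the median of Dbp, and no WT library was left out. A smaller SD in that group is therefore partly set by the choice, and no conclusion is drawn from it. The difference in spread between the groups was not tested.

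**Figure D3:**
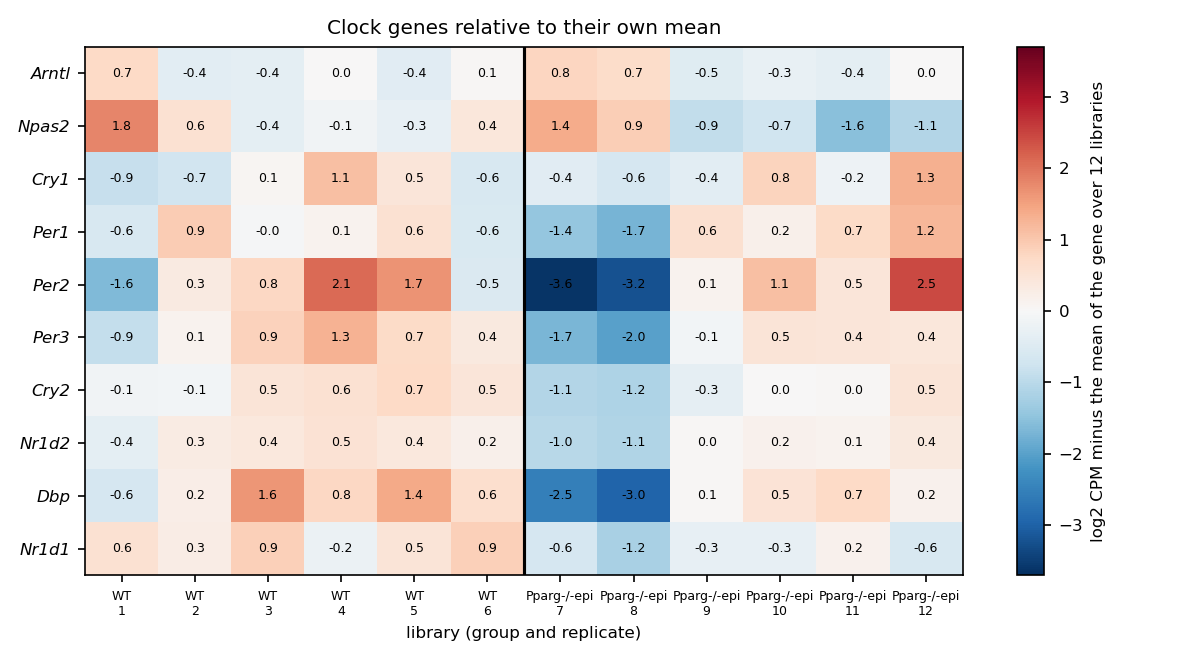
Log2 CPM of each clock gene minus its own mean over 12 libraries (colour, and number in each cell), with genes in rows and libraries in columns, WT to the left of the line. WT replicate 1 and Pparg-/-epi replicates 7 and 8 lie above the mean for Arntl and Npas2 and below it for Dbp, Per2 and Per3.

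Libraries that stood high or low in 1 clock gene often did so in others. WT replicate 1 and Pparg-/-epi replicates 7 and 8 had the highest Arntl and Npas2 and the lowest Dbp, Per2, Per3 and Nr1d2 of the 12 libraries. For Nr1d1 the same 3 libraries did not sit together: WT replicate 1 was at 254.5 CPM, the third highest of all, and Pparg-/-epi replicates 7 and 8 were at 112 and 75.5 CPM, the lowest of all. Those 3 mice come from early breeding numbers in the mouse names (217, 192 and 195), but Pparg-/-epi replicate 9, also of number 195, did not share the pattern, with Dbp at 78.2 and Arntl at 29.3 CPM. Their RIN was 7.4, 8.6 and 8.5, and WT replicate 2, with RIN 8.6, did not share the pattern either. WT replicate 1 had the highest fibroblast marker sum, 34533 CPM, and Pparg-/-epi replicate 8 the highest anagen follicle sum, 2290 CPM. The part of breeding number, RIN and these marker sums in the pattern was not tested.

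Because those mice were unequally spread over the groups, the contrast was also computed without them, a choice made after their values were seen. Without these 3 libraries the log2 fold change of Nr1d1 was -0.78 and missed the threshold (adjusted p = 0.0848, edgeR), and that of Npas2 was -1.21 (adjusted p = 0.0468), an altered call for a gene in which those libraries stand apart, with 6.03% of all genes altered. That of Dbp was -0.65 (adjusted p = 0.192). Among mice of later breeding numbers alone, 5 WT and 3 Pparg-/-epi, Nr1d1 stood at -0.75 (adjusted p = 0.181, edgeR) and 0 of 10 clock genes were altered, with 2 at an unadjusted p under 0.05, while 3.65% of all genes were altered in that subset. With a block each for early and late breeding numbers Nr1d1 was at -0.88 (adjusted p = 0.0284), and with RIN as a covariate at -0.79 (adjusted p = 0.0118). For Npas2 those fits gave -1.19 (adjusted p = 0.0614) and -1.31 (adjusted p = 0.0813), against -0.46 without such a term, and neither passed.

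Nr1d1 was next set against the other 9 genes across libraries, on log2 CPM. Its Pearson r was highest with Dbp, at 0.72 (Spearman's rho 0.65, permutation p = 0.00684 and 0.0253, adjusted over 9 partners 0.0616 and 0.228). It was 0.65 with Cry2, 0.56 with Nr1d2, 0.53 with Per3 and -0.40 with Arntl, and 0 of 9 passed after adjustment, with 2 of 9 at an unadjusted p under 0.05 by the two-sided permutation test. Leaving out the 2 libraries farthest from the median of Nr1d1, WT replicate 3 and Pparg-/-epi replicate 8, lowered r with Dbp to 0.44 and brought the rest to between -0.52 and 0.41. These values pool both genotypes and the permutations ignored genotype, so the shift of Nr1d1 between the groups enters them. With each group mean removed, r over the 12 libraries was 0.60 with Dbp, 0.39 with Cry2, 0.37 with Nr1d2, 0.36 with Per3 and -0.46 with Arntl. Within WT mice r ran from -0.56 with Cry1 to 0.18 with Dbp, and none of the 9 passed (smallest exact permutation p = 0.244). Within Pparg-/-epi mice it was 0.83 with Dbp (exact permutation p = 0.00556, adjusted p = 0.05), 0.77 with Per3, 0.70 with Nr1d2 and -0.79 with Arntl. None of those 9 passed after adjustment either, with 3 of 9 at an unadjusted p under 0.05 on r. Spearman's rho there was 0.83 with Dbp, 0.71 with Per3, 0.49 with Nr1d2 and -0.89 with Arntl. On rho none passed after adjustment (smallest adjusted exact permutation p = 0.2625). Whether r differs between the genotypes was not tested.

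**Figure D4:**
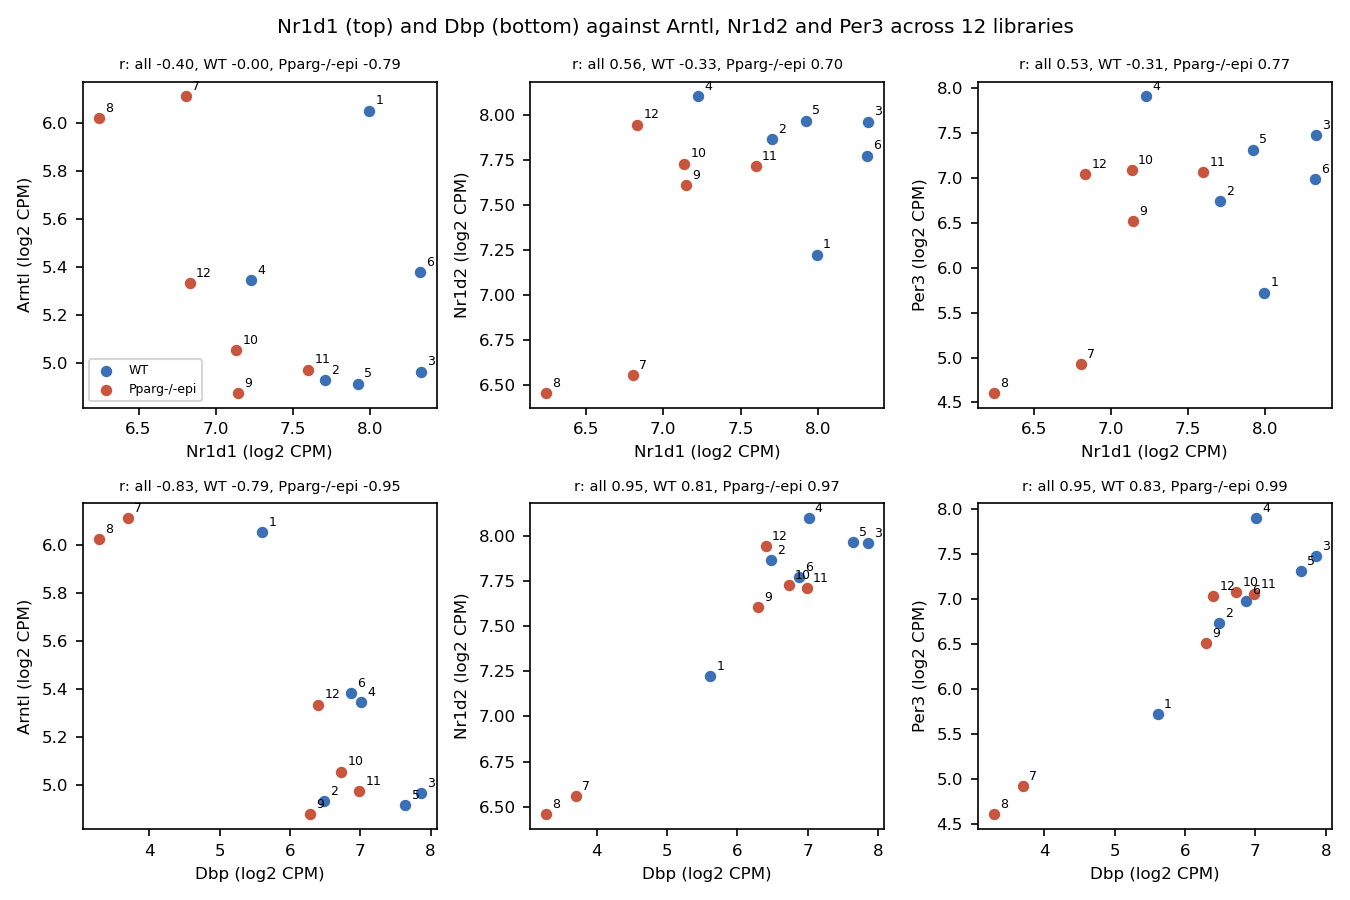
Log2 CPM of Arntl, Nr1d2 and Per3 (y axes) against log2 CPM of Nr1d1 (top) and Dbp (bottom), with replicate numbers beside the 6 WT (blue) and 6 Pparg-/-epi (red) points and Pearson's r above each panel. Against Nr1d1, r over all libraries is -0.40, 0.56 and 0.53, and against Dbp it is -0.83, 0.95 and 0.95.

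Dbp, taken as the reference after its values were seen, was set against the other 9 genes in the same way. Over 12 libraries its r was 0.95 with Per3, 0.95 with Nr1d2, 0.92 with Cry2, 0.85 with Per2 and 0.75 with Per1. It was -0.83 with Arntl and -0.61 with Npas2, and on r 8 of 9 had an adjusted permutation p under 0.05. On rho, Arntl (-0.52, adjusted permutation p = 0.114), Npas2 (-0.46, 0.148), Per1 (0.34, 0.288) and Cry1 (0.52, 0.114) did not pass. Without Pparg-/-epi replicates 7 and 8, the farthest from the median of Dbp, 0 of 9 passed on r, with 3 of 9 at an unadjusted p under 0.05. On rho, 2 of 9 passed there. Those 2 were Per3 (r 0.81, rho 0.88, adjusted permutation p = 0.0574 and 0.0139) and Cry2 (r 0.69, rho 0.82, adjusted permutation p = 0.0758 and 0.0257), and r was 0.73 with Nr1d2 (rho 0.72) and -0.61 with Arntl (rho -0.20). With WT replicate 1 left out too, r was -0.18 with Arntl and 0.12 with Npas2. There it was 0.48 with Nr1d2, 0.66 with Per3 and 0.66 with Cry2. Within WT mice the r of Dbp with Npas2 was -0.96 (exact permutation p = 0.00139, adjusted p = 0.0125), the 1 of 9 that passed there. Within Pparg-/-epi mice, where replicates 7 and 8 stand apart, 8 of 9 passed on r (adjusted exact permutation p from 0.025 to 0.0484), all but Cry1, and 0 of 9 passed on rho. The difference between the r values of Dbp and of Nr1d1 was not tested.

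With Nr1d1 modelled beside each partner in turn, an alternative added after the values were seen, its log2 fold change between the genotypes ran from -1.10 to -0.71. It stayed altered with 7 of the 9 partners as a covariate. With Dbp it was -0.71 (adjusted p = 0.0532, edgeR) and with Cry2 -0.73 (adjusted p = 0.0859).

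After each group mean was removed, genes most like Nr1d1 over the 12 libraries, among 11421 others with a mean of at least 5 CPM, were Ndufa4l2 (Pearson r 0.89), Ranbp3 (0.87), Wnt3a (0.84) and Gskip (0.83). The least like were Kbtbd7 (-0.93), Trim13 (-0.86), Dennd5b (-0.86), Suz12 (-0.85) and Gopc (-0.84). No clock gene was among these. Dbp ranked 461 from the top (r 0.60) and Clock 284 from the bottom (r -0.62). These are descriptions over shared libraries, with no test.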

How the data were processed

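Per the labels and methods, the authors aligned reads with STAR 2.5.2b to mm10, removed multi-mapped reads and counted per gene with featureCounts (Subread 1.5.1). The deposited table holds raw counts of 14533 genes, and 2800 blank rows were dropped. Every gene exceeds 0.5 CPM in 6 or more libraries, so no further filter was used. Columns were matched to mice by mouse name, for 2 mice through the study's run sheet. The main test was edgeR 4.0.16 (TMM factors, quasi-likelihood, R 4.3.3) of Pparg-/-epi against WT without covariates, adjusted by Benjamini-Hochberg across the table. DESeq2 1.42.0 and the likelihood ratio test were alternatives. Log2 CPM used a prior count of 2, and RPKM the deposited gene length. Correlations were tested by permutation (100000 resamples, exact for 6 libraries, scipy 1.17.1). The scripts were tested on simulated data. Named genes were the 10 clock genes, altered genes of the lists, Pparg and the 5 genes most and least like Nr1d1, and Sphk2, Btrc, Clock and the genes most like Dbp were named after their values were seen. Some genes under these rules are not reported here. The members and lists were chosen with earlier results of these data known.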

Additional observations from a re-analysis of the deposited data

Results flagged for a closer look

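In 24 groups of 6 libraries (the 10 clock genes, Bhlhe40 and Sgk1, in WT and Pparg-/-epi mice), the highest or lowest library was compared with the rest by the gap to its nearest neighbour over the whole range. WT replicate 1 was flagged in 2 of them. The rule would flag about 1 in 20 groups if values were normally distributed and groups independent. The groups share mice, and Arntl and Npas2 vary together in WT (Pearson r 0.83), so the count was not compared with that rate. For Arntl, the gap between 66.3 CPM and the next WT library at 41.5 CPM was 0.682 of the range. For Npas2, the gap between 14.4 and 5.92 CPM was 0.747 of the range. Without this mouse the log2 fold change of Npas2 was 0.0078 and that of Arntl 0.35.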

How the results depend on the processing

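The altered call of Nr1d1 held under the likelihood ratio test, DESeq2, library totals, RLE factors, a minimum of 10 counts in every library, and sex, RIN, age or breeding blocks in the model. It was lost among female mice alone (-0.80), and under alternatives added after seeing the data: without WT replicate 1 and Pparg-/-epi replicates 7 and 8 (-0.78), with later breeding numbers alone (-0.75), and with Cry2 (-0.73) or Dbp (-0.71) as a covariate. The clock genes altered were 0 among female mice and 0 with later breeding numbers, by edgeR, with 1 and 2 at an unadjusted p under 0.05, where 4.48% and 3.65% of all genes were altered. In the further pathway list 2 were altered with breeding blocks (Btrc and Bhlhe40), where 8.27% of all genes were altered. With each mouse left out 1 to 2 of that list were altered. The 2 were Nfil3 and Bhlhe40 without WT replicate 2, where the share of all genes rose to 15.5%. In the glucocorticoid list 0 were altered among female mice, 0 without the 3 libraries and 0 with later breeding numbers (3, 3 and 2 at an unadjusted p under 0.05), and 1 to 2 with each mouse left out (Sgk1 and Klf9 without Pparg-/-epi replicate 12). Of all genes 6.03% were altered without the 3 libraries and 9.65% without Pparg-/-epi replicate 12.

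Signs of genes that were not altered changed as follows. Arntl was at -0.063 with RIN, -0.080 with breeding blocks, -0.079 without the 3 libraries and -0.012 with later numbers. Per2 was at 0.047, 0.43, 0.16 and 0.42 in the same order. Among female mice Npas2 was at 0.12, Per1 at -0.37 and Cry1 at -0.60. With each mouse left out, Arntl ran from -0.028 to 0.35, Npas2 from -0.99 to 0.0078, Per1 from -0.20 to 0.29, Per2 from -0.99 to 0.26 and Cry1 from -0.15 to 0.52.

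For Nr1d1 and its partners, 0 to 2 passed on r with each mouse left out: Dbp without WT replicate 1, and Cry2 and Dbp without Pparg-/-epi replicate 12. Within WT mice r was -0.33 with Nr1d2, -0.46 with Per1, -0.54 with Per2, -0.31 with Per3 and -0.0028 with Cry2. Within Pparg-/-epi mice it was -0.75 with Npas2 and 0.16 with Cry1. Without the 2 farthest libraries it was -0.084 with Per1 and -0.058 with Per2, and without the 3 libraries -0.61 and -0.55. With each mouse left out, r with Npas2 ran from -0.18 to 0.21, with Per1 from -0.11 to 0.45 and with Per2 from -0.0097 to 0.47. For Dbp, 1 of 9 passed on r within WT mice, 8 within Pparg-/-epi mice, 0 without its 2 farthest libraries, 0 without the 3 libraries and 5 to 8 with each mouse left out, the 5 without Pparg-/-epi replicate 8. The causes of these changes were not tested. No paired analysis was possible because the groups share no replicate number, and breeding number 222 alone holds both genotypes (WT replicate 2 and Pparg-/-epi replicate 10), which leaves 1 pair.

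Depth limits Npas2 most, which rests on 14 counts in Pparg-/-epi replicate 11, its lowest library.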

Other observations

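Among the further clock pathway genes, likeness to Dbp after removal of group means ranged widely, as a description with no test and with Dbp chosen as the reference after its values were seen. Tef, a close relative of Dbp that also binds D-boxes, ranked 1 among 11421 genes (Pearson r 0.98), and Ciart, a repressor of the BMAL1 complex, ranked 2 (0.97). Hlf, the other relative of Dbp, ranked 15 (0.89). Others stood far lower, with Wee1 at 637 (0.71), Usp2 at 3912 (0.38), Nampt at 4022 (0.36), Bhlhe41 at an r of -0.21 and Nfil3 at -0.60. At the other end, Npas2 ranked last (-0.95) and Arntl 9 from the bottom (-0.88). Without WT replicate 1 and Pparg-/-epi replicates 7 and 8, and with group means kept, r of Dbp was 0.12 with Npas2 and -0.18 with Arntl. Nr1d1 ranked 1801 (0.60). Tef ran from 116 to 324 CPM in WT and from 57.3 to 251.3 CPM in Pparg-/-epi mice, with Pparg-/-epi replicates 7 and 8 again the lowest, at 68.0 and 57.3 CPM.

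Of the glucocorticoid-responsive list, Ddit4 ranked 6 (0.93), Klf9 27 (0.86) and Tsc22d3 53 (0.83) in likeness to Dbp. Cdkn1a ranked 995 (0.67), Fkbp5, Dusp1, Mt2, Errfi1 and Zbtb16 ranked between 2690 (0.51) and 4167 (0.34), and Sgk1, the altered gene, had an r of -0.42. The likeness values of this list, and of Tef, Ciart and Hlf, include Pparg-/-epi replicates 7 and 8, the libraries with the lowest Dbp. These values were not computed without those libraries.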
